A study of Mus musculus with 6 samples.

Results

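The genes of the NRF2 and glutathione system described here are Nfe2l2, which encodes the transcription factor NRF2, its inhibitor Keap1, and 8 genes known as NRF2 targets: Gclc, Gclm, Gsr, Gsta4, Gstm1, Hmox1, Nqo1 and Txnrd1. They were taken by symbol from the deposited count table and are 10 of its 23481 gene rows. All 10 were among the 12457 genes that passed the filter on low counts. The cells were of the mouse mammary carcinoma line 4T1, as the labels give it, and 4T1_T, a subline the labels do not describe, by the name of the count table. They were grown in DMEM with added non-essential amino acids, a supplement that in its common form holds asparagine. By their labels all were infected with a short hairpin RNA: shAsns-2 (libraries A and B) or shAsns-1 (library A), directed at the asparagine synthetase gene Asns, or the control shRenilla (libraries A and B), against Renilla luciferase, which is not a mouse gene. The column of shAsns-1 library B held 0 reads at every gene and gave no value, so the comparisons rest on 5 libraries with 1 for shAsns-1. The sources used here do not give the vector, any selection, the time after infection, or whether A and B are separate infections. P-values therefore measure only the spread between these libraries, with the spread of each gene estimated in part from other genes.

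NRF2 is held by KEAP1, an adaptor of a cullin-based ubiquitin ligase, and is degraded. When oxidants or electrophiles modify KEAP1, NRF2 accumulates, pairs with small MAF proteins and binds antioxidant response elements of genes for glutathione synthesis, glutathione and thioredoxin reduction, conjugation of electrophiles and breakdown of heme. NRF2 is mostly controlled as a protein, so the Nfe2l2 transcript is not a measure of its activity. In tumour cells the pathway is known for buffering oxidants, and it is linked to amino acid supply because glutathione is built from glutamate, cysteine and glycine.

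Promoter windows from RefSeq (GRCm38.p6, 250 bases before to 50 bases after a start site) were matched for 6 of the 10 genes, as 9 windows. Gclc, Gsr, Gsta4 and Hmox1 were not matched. The core of the antioxidant response element, searched as TGACNNNGC on both strands, was found in 3 of the 9 windows, in those of Nfe2l2, Gclm and Txnrd1. It is found in 12.4% of all 32851 windows. The AP-1 letters TGANTCA, which overlap that core when a C follows TGA, were in 0 of the 9 windows and in 7.81% of all. The 3 windows with a match are printed in the direction of transcription, with the matched letters in capitals, because they show where the regulator's own gene and its targets carry this sequence near a start. The window of Nfe2l2 is chr2:75704614-75704913 on the minus strand, with the match beginning 240 bases before the start site. The window of Gclm is chr3:122245307-122245606 on the plus strand, with the match on the opposite strand 134 bases before the start. That of Txnrd1, for the second of 3 start sites, is chr10:82858956-82859255 on the plus strand, with the match on the opposite strand 92 bases before the start.
Nfe2l2: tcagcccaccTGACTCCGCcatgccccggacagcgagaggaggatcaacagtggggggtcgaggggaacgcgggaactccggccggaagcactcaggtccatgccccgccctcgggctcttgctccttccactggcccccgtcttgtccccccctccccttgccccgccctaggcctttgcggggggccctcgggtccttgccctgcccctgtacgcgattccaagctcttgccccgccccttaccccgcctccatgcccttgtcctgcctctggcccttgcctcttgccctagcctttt
Gclm: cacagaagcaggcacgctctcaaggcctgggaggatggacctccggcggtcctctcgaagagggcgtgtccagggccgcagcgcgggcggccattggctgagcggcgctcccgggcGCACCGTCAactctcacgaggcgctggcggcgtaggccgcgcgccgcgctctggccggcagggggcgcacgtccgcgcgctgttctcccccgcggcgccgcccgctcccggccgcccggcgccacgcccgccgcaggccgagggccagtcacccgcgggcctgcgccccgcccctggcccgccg
Txnrd1: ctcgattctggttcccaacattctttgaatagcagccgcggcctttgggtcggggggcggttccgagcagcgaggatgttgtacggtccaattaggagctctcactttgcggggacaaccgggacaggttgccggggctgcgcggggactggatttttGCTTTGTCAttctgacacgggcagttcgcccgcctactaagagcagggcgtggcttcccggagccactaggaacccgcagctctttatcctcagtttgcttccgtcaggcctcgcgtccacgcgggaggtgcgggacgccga
A match is a description of these letters and not evidence of binding.

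Reads assigned to genes numbered 10244753 to 15955168 per library. Asns itself had 46.5 and 44.7 CPM (read counts per library size, scaled with TMM factors) in the shAsns-2 pair, 109 CPM in the library labelled shAsns-1, and 58.7 and 56.3 CPM in the shRenilla pair. It was thus lower in shAsns-2, though not past the threshold (log2 fold change -0.34, SE 0.0883, adjusted p = 0.216 by edgeR's quasi-likelihood test). Against its label, the library labelled shAsns-1 had more Asns (0.92, SE 0.101, adjusted p = 6.27e-05). Every direction given below for the library labelled shAsns-1 therefore comes from a library in which the targeted gene was not lowered. That library also held more olfactory receptor reads (41.5 unscaled CPM, against 7.99 to 11.9 in the other 4). It had reads at 17672 genes, against 15052 to 15392 in the other 4, though the fewest reads assigned to genes. What this means for genes of few reads was not tested. Its fold changes fell with transcript GC content (Spearman -0.32 over 8508 genes, which are not independent, against 0.07 in shAsns-2). Epithelial markers, which the labelled line should express, summed over 10 genes to 1131 and 1115 CPM in shAsns-2, 876 CPM in the library labelled shAsns-1, and 1059 and 1031 CPM in shRenilla. Krt5 was at 0 in every library but the one labelled shAsns-1, where it had 2 reads. Its other epithelial markers were below all 4 others, except Krt18, which at 305 CPM lay within their range of 288 to 342 CPM. Krt14 was at 2.79 CPM there against 12.05 to 13.01 CPM elsewhere. Epcam was at 33.1 CPM against 53.5 to 64.8 CPM, and Cdh1 at 295 CPM against 389 to 439 CPM. These marker differences were not tested. Macrophage and leukocyte markers summed to 11.6 to 14.5 CPM over 7 measured genes with Lyz2 at 0 throughout, fibroblast markers to 28.9 to 38.8 CPM over 7 with Lum at 0 throughout, and endothelial markers to 0.364 to 1.46 CPM over 5. The fibroblast sum was highest in the library labelled shAsns-1, and nearly all of it was Pdgfra in every library. Pdgfra stood at 37.5 CPM in that library, against 28.4 to 30.1 CPM in the others. The other fibroblast markers had at most 7 reads in any library. The part of the fibroblast sum in the results was not tested. In bulk RNA, fewer cells of a type and less RNA per cell cannot be told apart. Both comparisons with shRenilla share the same 2 control libraries. Over genes with at least 20 reads in a pair of libraries, shRenilla A differed less from shAsns-2 than from shRenilla B. The chi-square per degree of freedom was 6.88 and 5.29 against shAsns-2 A and B, and 9.2 against shRenilla B. For shRenilla B against shAsns-2 A and B it was 10.2 and 8.69. The spread within the control pair thus limits every comparison with shRenilla.

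Among the 10 genes, the heme-degrading enzyme Hmox1 stood lowest against shRenilla, both in shAsns-2 and in the library labelled shAsns-1, whose Asns level goes against the label. In shAsns-2 against shRenilla 0 of the 10 genes passed an adjusted p of 0.05 in edgeR, where 0.0642% of all genes tested passed. DESeq2 also called 0, and at an unadjusted p under 0.05 edgeR gave 2 lower, Hmox1 and Gclm, and 0 higher, against 4.05% of all genes lower and 5.59% higher at that level. In the library labelled shAsns-1, Gsr and Gsta4 rose and Hmox1 fell, while 7 were not called (DESeq2 called Hmox1 alone); 2.31% of all genes were called higher and 2.06% lower, 4.37% in all. Between the hairpins as labelled, with shAsns-2 set over the library labelled shAsns-1, 0 of the 10 were called, against 2.14% of all genes; 1 was higher and 3 lower at an unadjusted p under 0.05, where 8.87% and 7.89% of all genes were, and DESeq2 called 0. With 1 library on that side, hairpin and library cannot be told apart. The median log2 fold change of the 10 genes was -0.10 in shAsns-2 and 0.03 in the library labelled shAsns-1, beside -0.0014 in shAsns-2 and -0.009 in the library labelled shAsns-1 over all genes tested.

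**Figure D1:**
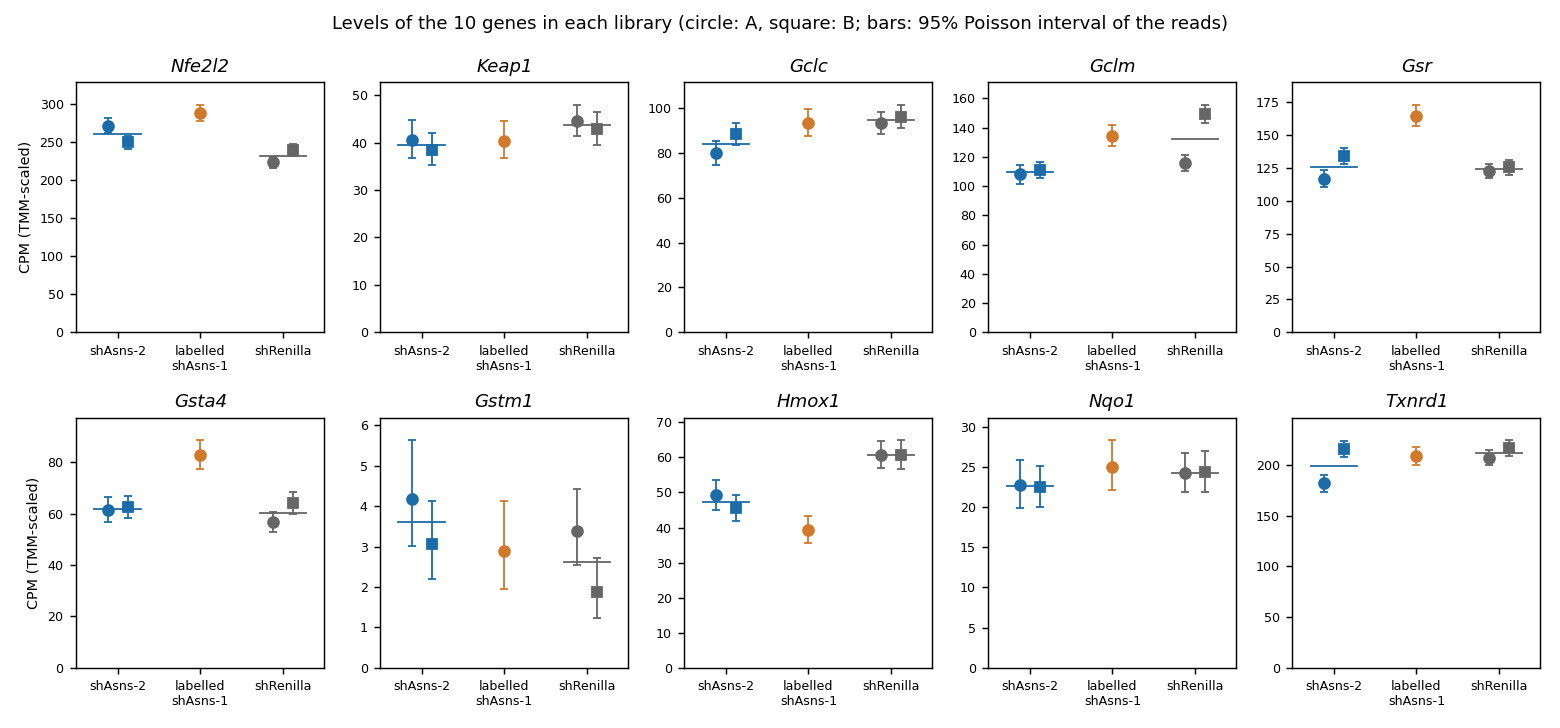
Scaled CPM (vertical axis, from 0) of the 10 genes in shAsns-2, the library labelled shAsns-1 and shRenilla, with circles for library A, squares for B, 95% Poisson intervals of the reads as bars and group means as lines. Hmox1 lies at 49.2 and 45.5 CPM in shAsns-2, 39.2 CPM in the library labelled shAsns-1, and 60.6 and 60.7 CPM in shRenilla.

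Hmox1, heme oxygenase 1, opens the heme ring to biliverdin, carbon monoxide and iron. Its position in mm10 (GRCm38), the build of all gene positions here, is chromosome 8, 75093621 to 75100589, plus strand (ENSMUSG00000005413). Its level was 49.2 and 45.5 CPM in the shAsns-2 libraries (506 and 625 reads), 39.2 CPM in the library labelled shAsns-1 (407 reads), and 60.6 and 60.7 CPM in shRenilla A and B (967 and 877 reads). Both shAsns-2 libraries and the library labelled shAsns-1 were below both shRenilla libraries. In the library labelled shAsns-1 the level was 0.646-fold that of shRenilla (95% interval 0.546 to 0.765; log2 fold change -0.63, SE 0.116, adjusted p = 0.00547). That call held in all 9 alternatives run for it, with adjusted p-values of 6.35e-05 to 0.0288, among them the fit with the GC trend removed (-0.56, adjusted p = 0.0112). In shAsns-2 the mean was 47.3 ± 2.60 CPM, against 60.7 ± 0.0485 CPM in shRenilla (SD, n = 2 each). That SD in shRenilla is below the counting error of its libraries, with 95% intervals of 56.9 to 64.6 CPM (A) and 56.7 to 64.8 CPM (B). The level in shAsns-2 was 0.779-fold that of shRenilla (95% interval 0.684 to 0.887, log2 fold change -0.36, SE 0.0889). In edgeR the p of Hmox1 in shAsns-2 was 0.000849 unadjusted and 0.189 adjusted, and DESeq2 gave an adjusted p of 0.663. In edgeR it passed when no filter on low counts was used (adjusted p = 0.0411), where calls over all genes went from 8 to 114. It also passed with the replicate letter as a block (adjusted p = 0.0211), where they went to 178. With a library left out, the log2 fold change of Hmox1 in shAsns-2 was -0.41 to -0.30. Between the hairpins the log2 fold change of Hmox1 was 0.27 (SE 0.118, adjusted p = 0.257), with shAsns-2 the higher.

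Of 16 tested genes of heme and iron handling, 0 were called by edgeR or DESeq2 in either comparison with shRenilla. DESeq2 gave an adjusted p to 13 of them in shAsns-2 and to 10 in the library labelled shAsns-1. At an unadjusted p under 0.05 in edgeR, 2 were higher and 1 lower in shAsns-2, where 5.59% and 4.05% of all genes were. In the library labelled shAsns-1, 1 was higher and 0 lower at that level, where 10% and 9.54% of all genes were. The median log2 fold change of the 16 genes was -0.02 in shAsns-2 and 0.07 in the library labelled shAsns-1. Ftl1, the ferritin light chain that stores iron, had the smallest p of the list. It stood at 703 and 615 CPM in shAsns-2, 581 CPM in the library labelled shAsns-1, and 545 and 554 CPM in shRenilla (log2 fold change in shAsns-2 0.26, adjusted p = 0.321). Both shAsns-2 libraries were the highest for Ftl1, and the library labelled shAsns-1 lay above both controls by less. The repressor of Hmox1 in the textbook account, Bach1, a heme-binding factor that competes with NRF2 for small MAF partners, stood at 16.9 and 16.7 CPM in shAsns-2, 14.8 CPM in the library labelled shAsns-1, and 15.1 and 15.99 CPM in shRenilla. It was not called in shAsns-2 (log2 fold change 0.11, adjusted p = 0.807) or in the library labelled shAsns-1 (-0.07, adjusted p = 0.861).

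Nfe2l2 and Keap1 lay on opposite sides of shRenilla, by small amounts that were not called. Nfe2l2 (ENSMUSG00000015839, chromosome 2, 75675513 to 75704641, minus strand) stood at 271 and 249 CPM in the shAsns-2 libraries, 288 CPM in the library labelled shAsns-1, and 223 and 239 CPM in shRenilla A and B. Both shAsns-2 libraries and the library labelled shAsns-1 were above both shRenilla libraries. The log2 fold change was 0.17 in shAsns-2 (SE 0.0815, adjusted p = 0.52) and 0.32 in the library labelled shAsns-1 (SE 0.0989, adjusted p = 0.0795). Without shRenilla B the value for the library labelled shAsns-1 was 0.37 and passed (adjusted p = 0.0348). Keap1 (ENSMUSG00000003308, chromosome 9, 21229730 to 21239361, minus strand) stood at 40.6 and 38.5 CPM in shAsns-2, 40.4 CPM in the library labelled shAsns-1, and 44.5 and 42.9 CPM in shRenilla. For Keap1 these 3 libraries were below both shRenilla libraries, with log2 fold changes of -0.15 in shAsns-2 (adjusted p = 0.633) and -0.11 in the library labelled shAsns-1 (adjusted p = 0.653). The counting interval of the library labelled shAsns-1 over shRenilla A, 0.803 to 1.03, included 1. An annotated antisense gene, Gm16754, overlaps exons of Keap1, and without a stated strand setting its reads cannot be told apart from those of Keap1.

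Per exon length, with levels in RPKM (CPM per kilobase of exon), Nfe2l2 exceeded Keap1 by a ratio of 8.26 and 8.01 in shAsns-2 A and B, 8.80 in the library labelled shAsns-1, and 6.20 and 6.89 in shRenilla A and B. This ratio of transcripts was higher in both shAsns-2 libraries, and in the library labelled shAsns-1, than in either control. It was not tested.

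Of the other regulators, small MAF partners, related factors and the degradation machinery, 0 of 14 were called by edgeR or DESeq2 in either comparison. In shAsns-2 0 had an unadjusted p under 0.05 and their median log2 fold change was 0.03. In the library labelled shAsns-1, 6 were lower and 0 higher at that level, and the median was -0.14, beside -0.01 over all genes tested; 9.54% of all genes were lower at an unadjusted p under 0.05. Nfe2l1, a related factor known for the proteasome genes, stood at 254 and 250.1 CPM in shAsns-2, 198 CPM in the library labelled shAsns-1, and 244 and 233 CPM in shRenilla. The library labelled shAsns-1 alone was low (log2 fold change -0.27, adjusted p = 0.129), and the difference between the hairpins was 0.35 (adjusted p = 0.0709). Mafg, a small MAF partner of NRF2, stood at 52.2 and 54.6 CPM in shAsns-2, 42.9 CPM in the library labelled shAsns-1, and 55.0 and 49.5 CPM in shRenilla (adjusted p = 0.941 in shAsns-2 and 0.187 in the library labelled shAsns-1).

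**Figure D2:**
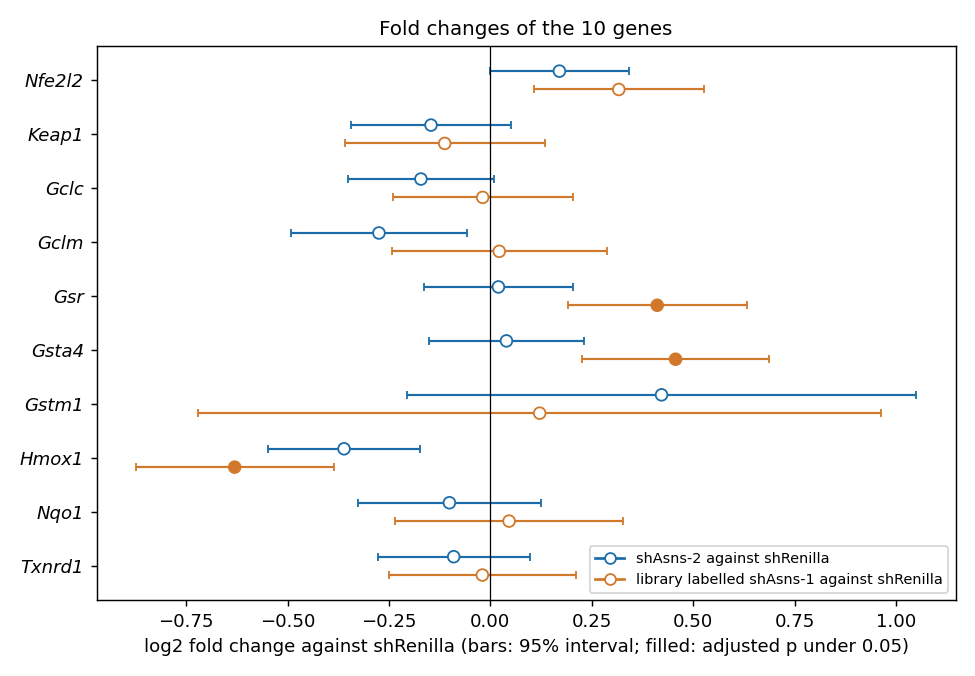
Log2 fold changes of the 10 genes against shRenilla (horizontal axis) with 95% intervals, blue for shAsns-2 and orange for the library labelled shAsns-1, filled where the adjusted p was under 0.05. Gsr (0.41), Gsta4 (0.46) and Hmox1 (-0.63) in the library labelled shAsns-1 are the filled points.

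The subunits of glutamate-cysteine ligase, which makes the first and limiting step of glutathione synthesis, were not called in either comparison. Gclc, the catalytic subunit (ENSMUSG00000032350, chromosome 9, 77754535 to 77794485, plus strand), stood at 79.7 and 88.1 CPM in shAsns-2, 93.4 CPM in the library labelled shAsns-1, and 93.2 and 96.1 CPM in shRenilla. Both shAsns-2 libraries were below both shRenilla libraries (log2 fold change -0.17, SE 0.0851, adjusted p = 0.541). Gclm, the modifier subunit (ENSMUSG00000028124, chromosome 3, 122245557 to 122270732, plus strand), stood at 108 and 111 CPM in shAsns-2, 134 CPM in the library labelled shAsns-1, and 116 and 149 CPM in shRenilla A and B. The control libraries themselves lay far apart for Gclm, and shRenilla A was closer to shAsns-2 than to shRenilla B. For shAsns-2 this gave a log2 fold change of -0.27 (SE 0.102, unadjusted p = 0.0158, adjusted p = 0.412), and it was -0.08 without shRenilla B and -0.44 without shRenilla A. In the library labelled shAsns-1 the log2 fold changes were -0.02 for Gclc and 0.02 for Gclm, each with an adjusted p of 0.942 to 0.943. The ratio of Gclm to Gclc in RPKM was 0.811 and 0.752 in shAsns-2, 0.861 in the library labelled shAsns-1, and 0.744 and 0.929 in shRenilla, so the groups overlapped. Exons of Gclm overlap a pseudogene, Gm6061, and an antisense transcript, Gm17494, in the annotation.

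Among 11 tested genes of glutathione supply and turnover, 0 were called in shAsns-2, with 1 higher and 1 lower at an unadjusted p under 0.05. In the library labelled shAsns-1, 1 fell, while DESeq2 called 0 of the 6 to which it gave an adjusted p. Over all genes, 2.06% were called lower in that library, and 5.59% were higher and 4.05% lower at an unadjusted p under 0.05 in shAsns-2. The gene that fell was Slc3a2, the heavy chain that carries the cystine importer xCT and other transporters to the membrane. It stood at 139 and 130 CPM in shAsns-2, 104 CPM in the library labelled shAsns-1, and 132 and 149 CPM in shRenilla (log2 fold change -0.43 in the library labelled shAsns-1, SE 0.110, adjusted p = 0.0336). Slc7a11, xCT itself and a known target of both NRF2 and ATF4, stood at 51.7 and 51.9 CPM in shAsns-2, 37.4 CPM in the library labelled shAsns-1, and 47.7 and 42.8 CPM in shRenilla. It lay above both controls in shAsns-2 (0.19, adjusted p = 0.52) and below both in the library labelled shAsns-1 (-0.27, adjusted p = 0.215). The test of the difference between the hairpins gave 0.47 (SE 0.121, adjusted p = 0.0549). Gss, which adds glycine to complete glutathione, stood at 19.3 and 21.3 CPM in shAsns-2, 18.8 CPM in the library labelled shAsns-1, and 21.4 and 17.4 CPM in shRenilla, with the groups overlapping. Chac1, which cleaves glutathione, was the 1 gene of the 100 tested over all lists called between the hairpins, where 2.14% of all genes were. Its levels were 26.5 and 23.1 CPM in shAsns-2, 13.6 CPM in the library labelled shAsns-1, and 15.4 and 16.4 CPM in shRenilla (between the hairpins 0.86, SE 0.162, adjusted p = 0.00922). Chac1 in shAsns-2 against shRenilla gave 0.64 on the log2 scale (SE 0.119, adjusted p = 0.0642), with both shAsns-2 libraries above the other 3.

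Gsr and Gsta4 rose in the library labelled shAsns-1 and overlapped with the controls in shAsns-2. Gsr, glutathione reductase, returns oxidised glutathione to its reduced form with NADPH (ENSMUSG00000031584, chromosome 8, 33652523 to 33698163, plus strand). Its levels were 117 and 134 CPM in the shAsns-2 libraries, 165 CPM in the library labelled shAsns-1, and 122 and 125 CPM in shRenilla A and B. The library labelled shAsns-1 was above the other 4, while shAsns-2 lay on both sides of shRenilla. Its fold change was 1.33 (95% interval 1.14 to 1.55; log2 0.41, SE 0.104, adjusted p = 0.0328). For Gsr in shAsns-2 the value was 0.02 on the log2 scale (95% interval -0.16 to 0.20, adjusted p = 0.957), with the sign turning to -0.08 without shAsns-2 B.

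Gsta4, an alpha class glutathione transferase known for conjugating 4-hydroxynonenal, a product of lipid peroxidation (ENSMUSG00000032348, chromosome 9, 78182774 to 78209349, plus strand), was also highest in the library labelled shAsns-1. It stood at 61.4 and 62.5 CPM in shAsns-2, 82.7 CPM in the library labelled shAsns-1, and 56.6 and 64.0 CPM in shRenilla. The fold change in the library labelled shAsns-1 was 1.37 (95% interval 1.17 to 1.61; log2 0.46, SE 0.109, adjusted p = 0.0255). In shAsns-2 the log2 fold change of Gsta4 was 0.04 (95% interval -0.15 to 0.23, adjusted p = 0.92), and it was -0.05 without shRenilla A. Between the hairpins the tests gave -0.39 for Gsr (SE 0.105, adjusted p = 0.0614) and -0.42 for Gsta4 (SE 0.110, adjusted p = 0.0578), so a difference between the hairpins was not called for either. The calls for both genes against shRenilla were lost without shAsns-2 A, shAsns-2 B or shRenilla A, with adjusted p-values of 0.0787 to 0.0907 for Gsr and 0.0603 to 0.0773 for Gsta4. DESeq2 gave an adjusted p of 0.0595 for Gsr and 0.0716 for Gsta4. Single-library ratios, whose 95% intervals cover counting error only, were 1.35 (1.26 to 1.44) and 1.31 (1.23 to 1.41) for Gsr over shRenilla A and B, and 1.46 (1.33 to 1.61) and 1.29 (1.18 to 1.42) for Gsta4.

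Gstm1, a mu class transferase (ENSMUSG00000058135, chromosome 3, 108012255 to 108017973, minus strand), was the lowest of the 10 genes. It had 43 and 42 reads in shAsns-2 A and B, 30 in the library labelled shAsns-1, and 54 and 27 in shRenilla A and B. These are 4.18 and 3.06 CPM in shAsns-2, 2.89 CPM in the library labelled shAsns-1, and 3.38 and 1.87 CPM in shRenilla, and the groups overlapped. A log2 fold change of 0.42 in shAsns-2 had an SE of 0.297 and an adjusted p of 0.661, so a difference was not detectable at this depth. The deposited tallies of reads with several alignments and of reads with low mapping quality are both 0 in every library, and how reads that match several near-identical Gstm genes were treated is not stated, so its level is uncertain.

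Of 14 other glutathione transferases tested, 11 in the library labelled shAsns-1 had a log2 fold change above 0 and the median was 0.28, beside 6064 of 12457 and -0.01 over all genes. Of these transferases DESeq2 called 0, and it gave an adjusted p to only 6 of the 14. EdgeR called 1 higher, where 2.31% of all genes were called higher. At an unadjusted p under 0.05, 2 were higher and 2 lower, where 10% and 9.54% of all genes were. In shAsns-2 the median was 0.01 and 0 were called, with 1 higher and 1 lower at that level, where 5.59% and 4.05% of all genes were. The called gene, Mgst2, a microsomal transferase, had 25 and 27 reads in shAsns-2, 52 in the library labelled shAsns-1, and 24 and 23 in shRenilla. These are 2.43 and 1.97 CPM in shAsns-2, 5.01 CPM in the library labelled shAsns-1, and 1.51 and 1.59 CPM in shRenilla (log2 fold change in the library labelled shAsns-1 1.69, SE 0.331, adjusted p = 0.00807). Glutathione peroxidases and glutaredoxins had 0 of 11 called by edgeR or DESeq2 in either comparison with shRenilla and 0 at an unadjusted p under 0.05. DESeq2 gave an adjusted p to 10 of them in shAsns-2 and to 7 in the library labelled shAsns-1. Their median log2 fold change was -0.13 in shAsns-2, with 10 of 11 below 0, beside -0.0014 and 6272 of 12457 over all genes. In the library labelled shAsns-1 their median was 0.06. Gpx4, the peroxidase that reduces lipid hydroperoxides in membranes, stood at 11.4 and 12.1 CPM in shAsns-2, 13.8 CPM in the library labelled shAsns-1, and 11.97 and 16.4 CPM in shRenilla, again with shRenilla B apart (adjusted p = 0.612 in shAsns-2). The smallest p of that list was that of Glrx3, a cytosolic glutaredoxin that carries iron-sulfur clusters, between the hairpins (-0.53, adjusted p = 0.109).

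**Figure D3:**
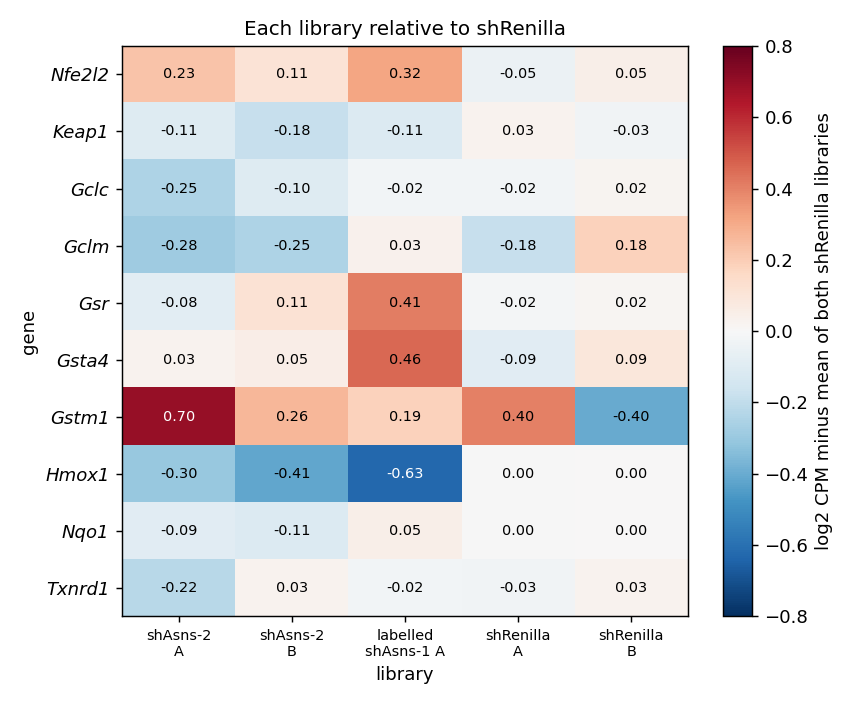
Log2 CPM of each gene (rows) in each library (columns) minus the mean of both shRenilla libraries, with red for higher and blue for lower. Gsr (0.41) and Gsta4 (0.46) stand out in the library labelled shAsns-1 alone, Hmox1 lies at -0.30 and -0.41 in shAsns-2 and at -0.63 in the library labelled shAsns-1, and Gclm and Gstm1 differ between the shRenilla libraries themselves.

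Txnrd1, the cytosolic thioredoxin reductase, a selenoprotein (ENSMUSG00000020250, chromosome 10, 82833951 to 82897712, plus strand), stood at 182 and 216 CPM in the shAsns-2 libraries, 209 CPM in the library labelled shAsns-1, and 207 and 216 CPM in shRenilla A and B. Only shAsns-2 A was outside the range of the others. The log2 fold change was -0.09 in shAsns-2 (95% interval -0.28 to 0.10, adjusted p = 0.779), 0.03 without shAsns-2 A, and -0.02 in the library labelled shAsns-1 (-0.25 to 0.21, adjusted p = 0.942). Nqo1, a quinone reductase and a widely used readout of NRF2 (ENSMUSG00000003849, chromosome 8, 107388225 to 107403206, minus strand), stood at 22.7 and 22.5 CPM in shAsns-2, 25.0 CPM in the library labelled shAsns-1, and 24.2 and 24.3 CPM in shRenilla. The shAsns-2 libraries were below the controls and the library labelled shAsns-1 above them. The counting intervals of the library labelled shAsns-1 over shRenilla A (0.880 to 1.21) and B (0.874 to 1.21) included 1. Its log2 fold changes were -0.10 in shAsns-2 (95% interval -0.33 to 0.12, adjusted p = 0.80) and 0.05 in the library labelled shAsns-1 (-0.23 to 0.33, adjusted p = 0.89).

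Counted over the 10 genes, 1 was above both shRenilla libraries in both shAsns-2 libraries and 5 were below, where 20.6% and 20.7% of all genes tested were. The library labelled shAsns-1 was above both controls at 4 genes and below both at 2, where 37.4% and 38.5% of all genes were. Both shAsns-2 libraries were above the library labelled shAsns-1 at 2 genes and below it at 6, where 39.8% and 39.2% of all genes were.

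Of 12 genes of the thioredoxin and peroxiredoxin system, 0 were called by edgeR or DESeq2 in either comparison. At an unadjusted p under 0.05, 2 were higher and 3 lower in shAsns-2, and 2 higher and 1 lower in the library labelled shAsns-1. At that level 5.59% of all genes were higher and 4.05% lower in shAsns-2. In the library labelled shAsns-1 the shares were 10% and 9.54%, and edgeR called 2.31% of all genes higher. Prdx2, a peroxiredoxin that removes hydrogen peroxide, had the smallest p. It stood at 69.8 and 74.9 CPM in shAsns-2, 81.2 CPM in the library labelled shAsns-1, and 83.0 and 102 CPM in shRenilla (log2 fold change in shAsns-2 -0.35, adjusted p = 0.242). Srxn1, sulfiredoxin, a known NRF2 target that repairs peroxiredoxins, stood at 44.6 and 50.5 CPM in shAsns-2, 51.7 CPM in the library labelled shAsns-1, and 52.7 and 50.6 CPM in shRenilla (log2 fold change -0.12 in shAsns-2, adjusted p = 0.719, and 0.00 in the library labelled shAsns-1, adjusted p = 0.997). Of 6 genes of NADPH supply, Idh1, the cytosolic isocitrate dehydrogenase that makes NADPH, rose in the library labelled shAsns-1 and 5 were not called; 0 were called in shAsns-2, with 1 higher and 0 lower at an unadjusted p under 0.05. Idh1 stood at 90.3 and 89.4 CPM in shAsns-2, 107 CPM in the library labelled shAsns-1, and 74.3 and 70.9 CPM in shRenilla. Both shAsns-2 libraries and the library labelled shAsns-1 were above both controls (log2 fold change 0.57, SE 0.0997, adjusted p = 0.0041 in the library labelled shAsns-1; 0.31, SE 0.0826, adjusted p = 0.222 in shAsns-2).

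Among 12 genes of quinone, carbonyl and xenobiotic handling, 0 were called by edgeR or DESeq2 in either comparison. DESeq2 gave an adjusted p to 9 of them in shAsns-2 and to 6 in the library labelled shAsns-1. In edgeR 0 had an unadjusted p under 0.05 in shAsns-2, and 2 were higher and 2 lower in the library labelled shAsns-1. At that level 5.59% of all genes were higher and 4.05% lower in shAsns-2. In the library labelled shAsns-1 the shares were 10% and 9.54%. Ptgr1, a reductase of reactive alkenals and a known NRF2 target, had the smallest p, between the hairpins. It stood at 13.3 and 14.7 CPM in shAsns-2, 19.5 CPM in the library labelled shAsns-1, and 15.0 and 15.2 CPM in shRenilla (-0.47 between the hairpins, adjusted p = 0.126). The 4 superoxide and hydrogen peroxide enzymes had 0 called by edgeR or DESeq2. At an unadjusted p under 0.05 in edgeR, 1 was higher and 0 lower in each comparison with shRenilla. Between the hairpins 1 was higher and 1 lower at that level, where 8.87% and 7.89% of all genes were. Sod3, the extracellular superoxide dismutase, stood at 6.51 and 4.29 CPM in shAsns-2, 3.95 CPM in the library labelled shAsns-1, and 2.07 and 3.11 CPM in shRenilla (log2 fold change in shAsns-2 1.04, SE 0.268, adjusted p = 0.211). Over all 9 lists, 118 genes of which 100 were tested, 0 were called in shAsns-2 (8 higher and 6 lower at an unadjusted p under 0.05), and 2 rose and 1 fell in the library labelled shAsns-1. Over all genes tested, 0.0642% were called in shAsns-2, and 2.31% were called higher and 2.06% lower in the library labelled shAsns-1. DESeq2 called 0 in shAsns-2, among 80 genes to which it gave an adjusted p, and Idh1 alone in the library labelled shAsns-1, among 65. The median log2 fold change was -0.02 in shAsns-2 and 0.03 in the library labelled shAsns-1.

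**Figure D4:**
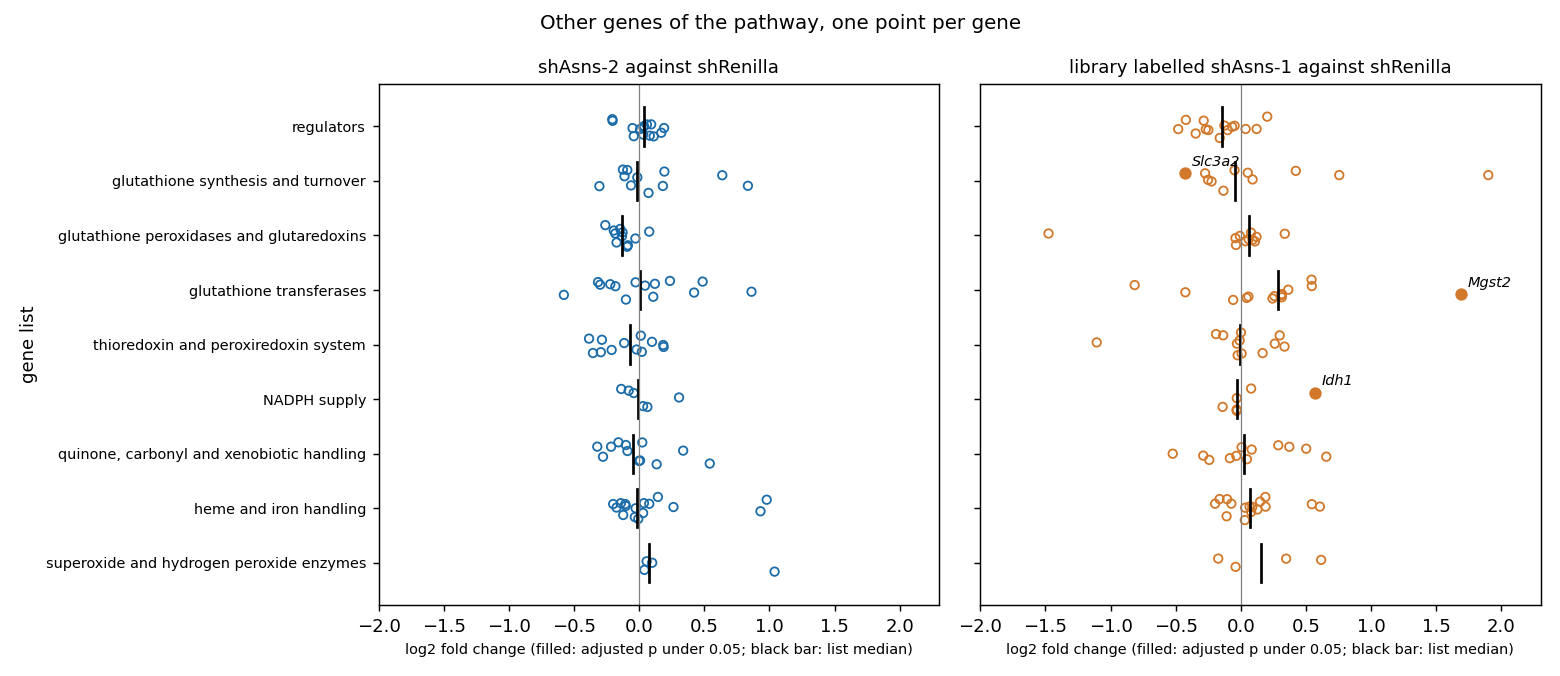
Log2 fold changes against shRenilla (horizontal axis) of the 100 tested genes of the 9 other pathway lists (rows), shAsns-2 in the left panel and the library labelled shAsns-1 in the right, with filled points for an adjusted p under 0.05 and black bars for list medians. The left panel has 0 filled points and the right has Slc3a2, Mgst2 and Idh1.

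In order of level per exon length, Nfe2l2 was the highest of the 10 in every group, at 68.6 ± 4.06 RPKM in shAsns-2, 75.9 RPKM in the library labelled shAsns-1 and 60.9 ± 2.97 RPKM in shRenilla (SD, n = 2 each for shAsns-2 and shRenilla). Its level exceeded that of 94.6% of the 11749 tested genes with a length in shRenilla. Gsta4 and Gsr followed with overlapping libraries in shAsns-2 (48.9 and 45.5 RPKM) and in shRenilla (47.6 and 45.0 RPKM). Hmox1 was next in shRenilla at 34.6 RPKM, above Txnrd1 (29.9), Gclc (25.1) and Gclm (21.0). In shAsns-2 Hmox1, at 27.0 RPKM, overlapped with Txnrd1 at 28.03, and in the library labelled shAsns-1, at 22.4 RPKM, it stood below Txnrd1 (29.5) and Gclc (24.8). Nqo1 (15.6 RPKM in shRenilla), Keap1 (9.31) and Gstm1 (1.78) closed the order in every group. Other neighbours in shRenilla did not overlap between libraries.

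The genes whose profile over the 5 libraries was most like that of Hmox1 were Rbm19, Dmxl2 and Polr1b, with root mean square differences of 0.0325, 0.0407 and 0.0414 in centred log2 CPM. Only 44 of 8551 genes searched were within 0.1 of Hmox1. For Nfe2l2 they were Rfk (0.00865), Phf6 (0.0170) and Stxbp4 (0.0201), with 1019 genes within 0.1, and for Txnrd1 they were Gpatch2 (0.0129), Mboat1 (0.0191) and Spopl (0.0198), with 1822 genes within 0.1. The median difference over all genes searched was 0.258 from Hmox1, 0.165 from Nfe2l2 and 0.137 from Txnrd1. With 5 libraries, likeness of this kind is a description of these libraries only.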

How the data were processed

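Libraries were made from total RNA (Nugen Ovation RNA-Seq V2), per the labels' protocols. Bowtie2, HTSeq and the build mm10 are named in the submitters' processing notes; the sources used here do not give versions, annotation or strand setting. The deposited values are raw read counts per gene. The 5 tallies of unassigned reads were left out, of which reads outside genes made up 36.1% to 38.3% of all reads in the libraries with reads.

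The counts of 5 libraries were fitted together in edgeR 4.0.16 (R 4.3.3, limma 3.58.1) with TMM scaling, filterByExpr and the quasi-likelihood test. This left 2 residual degrees of freedom per gene. To these the fit added 14.7 prior degrees of freedom from the spread of other genes, and p-values and 95% intervals of fold changes rest mostly on that prior. The lone library labelled shAsns-1 is assumed to vary like the others. P-values were adjusted by Benjamini-Hochberg over 12457 genes, with a threshold of 0.05 for a call. Printed CPM and RPKM were computed here from the counts with TMM-scaled library sizes, and RPKM with exon-union lengths of GENCODE vM21 (GRCm38). Intervals are at 95%, and those from read counts cover counting error only. A count of 0 allows up to 3 reads, or 0.188 to 0.293 CPM.

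Alternatives were DESeq2 1.42.0, its size factors within edgeR, no filter on low counts, each library left out, the replicate letter as a block, and a GC trend removed. A gene to which DESeq2 gave no adjusted p was counted as not called by it. The genes and the other lists were chosen with earlier results of these data known. Named genes were the 10 genes, Asns, every list gene called in a comparison, the gene of smallest p in a list with none called, 7 set list genes (Nfe2l1, Bach1, Mafg, Slc7a11, Gss, Srxn1 and Gpx4) and the 3 nearest profiles of Nfe2l2, Hmox1 and Txnrd1.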

Additional observations from a re-analysis of the deposited data

How the results depend on the processing

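Of 280 values of the 10 genes under the alternatives, 247 kept their direction and their side of the threshold, 8 lost a call, 11 gained one and 14 turned in sign, of which 0 were called; causes were not tested. In the library labelled shAsns-1 the count of genes called was 3, 1 with DESeq2, and 1 to 4 with a library left out. In shAsns-2 it was 0, 1 with no filter on low counts (Hmox1), and 0 with a library left out. Between the hairpins it was 0, 2 with no filter (Gsr and Gsta4), and 0 to 2 with a library left out.

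Whether the replicate letters pair libraries across hairpins is not stated. A minus B differences in shAsns-2 and shRenilla correlated at 0.0268 over 8952 genes. With 1 such difference per hairpin, this cannot show whether a step of preparation was shared. With the letter as a replicate block, 1 gene was called in shAsns-2 (Hmox1, adjusted p = 0.0211 in edgeR), 3 in the library labelled shAsns-1 and 3 between the hairpins (Gclm, Gsr and Gsta4). The block turned Gclc to 0.027, Gstm1 to -0.15 and Txnrd1 to 0.056 in the library labelled shAsns-1, and the fit with the GC trend removed turned Gclm to -0.0715 and Txnrd1 to 0.0138 there.

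Leaving out a library gave these ranges of log2 fold change for the genes that turned. In shAsns-2 they were -0.2204 to 0.0258 for Txnrd1, -0.0848 to 0.1134 for Gsr and -0.0457 to 0.1305 for Gsta4. In the library labelled shAsns-1 they were -0.15 to 0.21 for Gclm, -0.0394 to 0.0032 for Gclc, -0.23 to 0.63 for Gstm1 and -0.0493 to 0.0119 for Txnrd1. Between the hairpins they were -0.2017 to 0.0453 for Txnrd1 and -0.0709 to 0.0054 for Keap1.

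Over all genes, calls in shAsns-2 numbered 8, 114 with no filter, 178 with the block and 0 to 47 with a library left out. In the library labelled shAsns-1 they numbered 544, 257 with DESeq2, 919 with no filter, 924 with the block and 290 to 825 with a library left out. Between the hairpins they numbered 267, 157 with DESeq2, 608 with no filter, 875 with the block, 163 with the GC trend removed and 58 to 642 with a library left out. With the GC trend removed, calls over all genes in the library labelled shAsns-1 numbered 398. Depth limits Gstm1 most, with 27 to 54 reads per library.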
